A study of Oryza sativa with 24 samples.

Results

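Flag leaves of Fix T4, the fourth clonal seed generation of a synthetically apomictic hybrid rice, were compared by RNA-seq with those of the earlier seed generations Fix T1, Fix T2 and Fix T3. The comparison took the 2 Fix T4 libraries against the 6 of Fix T1 to Fix T3, as the mean of the 3 group means, so it used 8 of the 12 RNA-seq libraries of a series of 24 samples. The libraries were chosen by their generation labels alone. All 4 generations carry the Fix genotype, edited in the hybrid Chunyou84 (CY84) background, which is a cross of the japonica male-sterile line Chunjiang 16 A with the indica-japonica line C84. All 4 were raised from seed and then field-grown, with diploid seedlings selected by flow cytometry at each generation, and leaves were taken at heading. The remaining RNA-seq libraries came from CY84 and the founding Fix T0, 2 each, which had been kept by their roots. They helped to estimate the spread and are used below only as levels. The labels do not say whether replicates came from separate plants, so the p-values measure the spread between these libraries, which may be technical. The labels give no planting date, hour of sampling or sequencing batch, so a difference between generations and a difference between samplings cannot be told apart.

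Fix plants combine edits that turn meiosis into a mitosis-like division with an edit that lets egg cells develop without fertilisation, so their seeds are clones of the mother. The comparison addresses whether the latest clonal generation differed in leaf expression from those before it. A leaf's transcript levels also follow its surroundings. Cold, wounding and other sudden stimuli raise calcium in plant cells within moments, calmodulin-like proteins bind it, and early transcription factors such as the DREB1 (CBF) family, WRKY and MYB proteins follow, while JAZ proteins restrain the jasmonate response that the same stimuli switch on.

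Levels are FPKM, which counts fragments relative to gene length and library size. They were tested as log2(FPKM + 1) with limma over 18871 genes, and passing means an adjusted p (Benjamini-Hochberg) under 0.05. A log2 difference is on this scale and understates the change of genes near 0. The scale of the libraries and the place of 1 of them bear on every result. The median of all genes lay 0.362 (log2) above the earlier generations in Fix T4, and dividing each library by its median-of-ratios factor moved this median by 0.351, to 0.012. The factors were 1.166 and 1.274 in Fix T4, against 0.715 to 0.899 in 5 of the 6 earlier libraries and 1.175 in Fix T1 replicate 2. Fix T1 replicate 2 stood apart from the other earlier libraries: its correlation across genes was 0.968 and 0.973 with the Fix T4 libraries and 0.945 with Fix T1 replicate 1. The Fix T4 libraries correlated at 0.970 with each other, and at 0.900 to 0.973 with the 6 earlier ones. The 10 most abundant genes held 14.7% and 13.2% of the summed FPKM in Fix T4, against 14.3% to 19.3% in the earlier libraries. Results are therefore given on the deposited and on the rescaled scale, and with and without Fix T1 replicate 2. Of the 6 earlier libraries it correlated best with both Fix T4 libraries. Leaving it out moves the earlier mean away from Fix T4 (median of all genes 0.42) and leaves Fix T1 with 1 library. Calls gained without it are therefore partly built in and are a description.

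**Figure D1:**
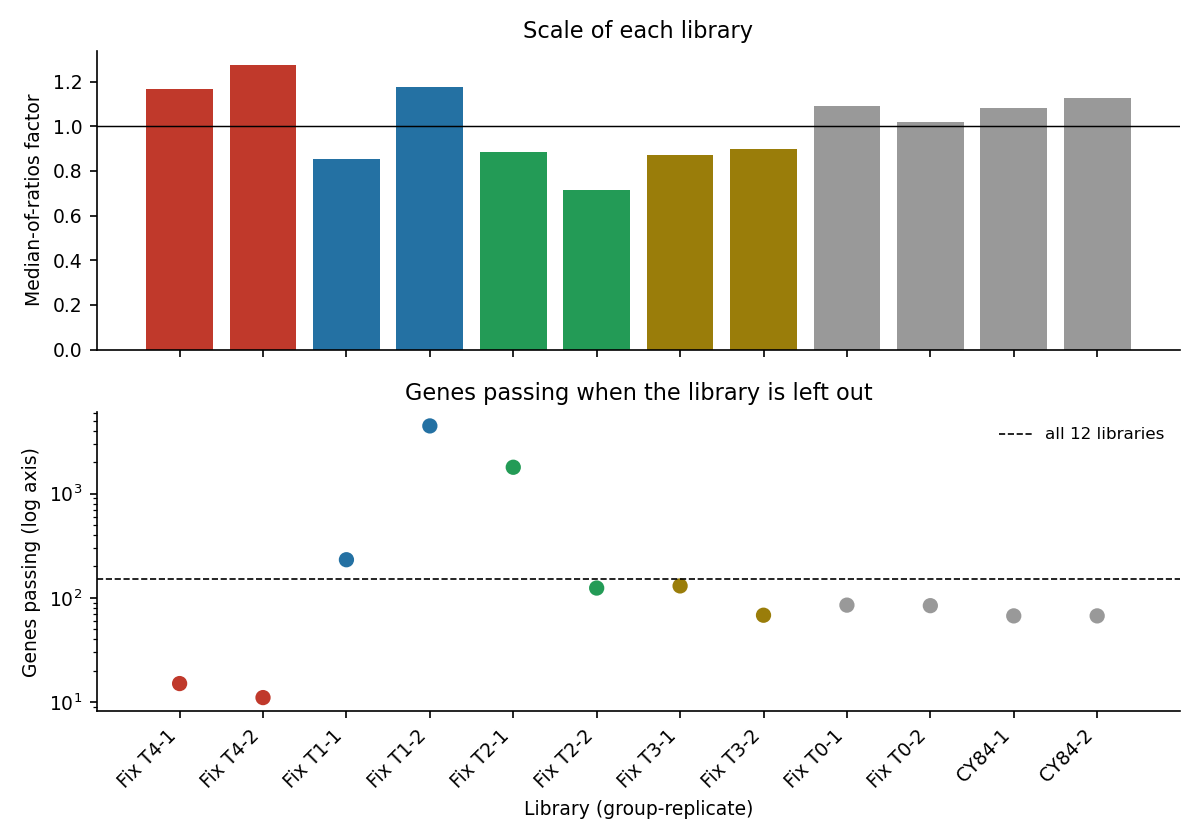
Scale factor of each library (upper panel, median-of-ratios factor, bars from 0) and the number of genes passing when that library is left out (lower panel, log axis; the dashed line is the count with all 12). Fix T1 replicate 2 had a factor of 1.175, near the 1.166 and 1.274 of Fix T4, and leaving it out gave 4473 passing genes against 150 with all libraries.

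On the deposited scale most genes that passed were higher in Fix T4, while after rescaling higher and lower genes were near equal in number at an unadjusted p under 0.05. Among genes with a usable name the largest passing rises were those of DREB1B and DREB1A, which are cold-response factors, and of CML15 and CML31, which are calmodulin-like calcium sensors. In all 150 genes passed, 146 higher and 4 lower in Fix T4, which is 0.774% and 0.0212% of the genes tested. Counting unadjusted p-values under 0.05, 5153 genes were higher and 299 lower. On the rescaled values 36 passed higher (0.191%) and 7 lower (0.0371%), 39 of these 43 genes were among the 150, and the unadjusted counts were 1726 higher and 1856 lower. Higher genes thus made up 97.3% of the passing genes on the deposited scale and 83.7% on the rescaled one. Without Fix T1 replicate 2, 4290 passed higher and 183 lower, and 694 and 800 when also rescaled, so that lower genes were then the larger group. Leaf RNA was measured in bulk, so more cells of a type and more RNA per cell cannot be told apart.

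**Figure D2:**
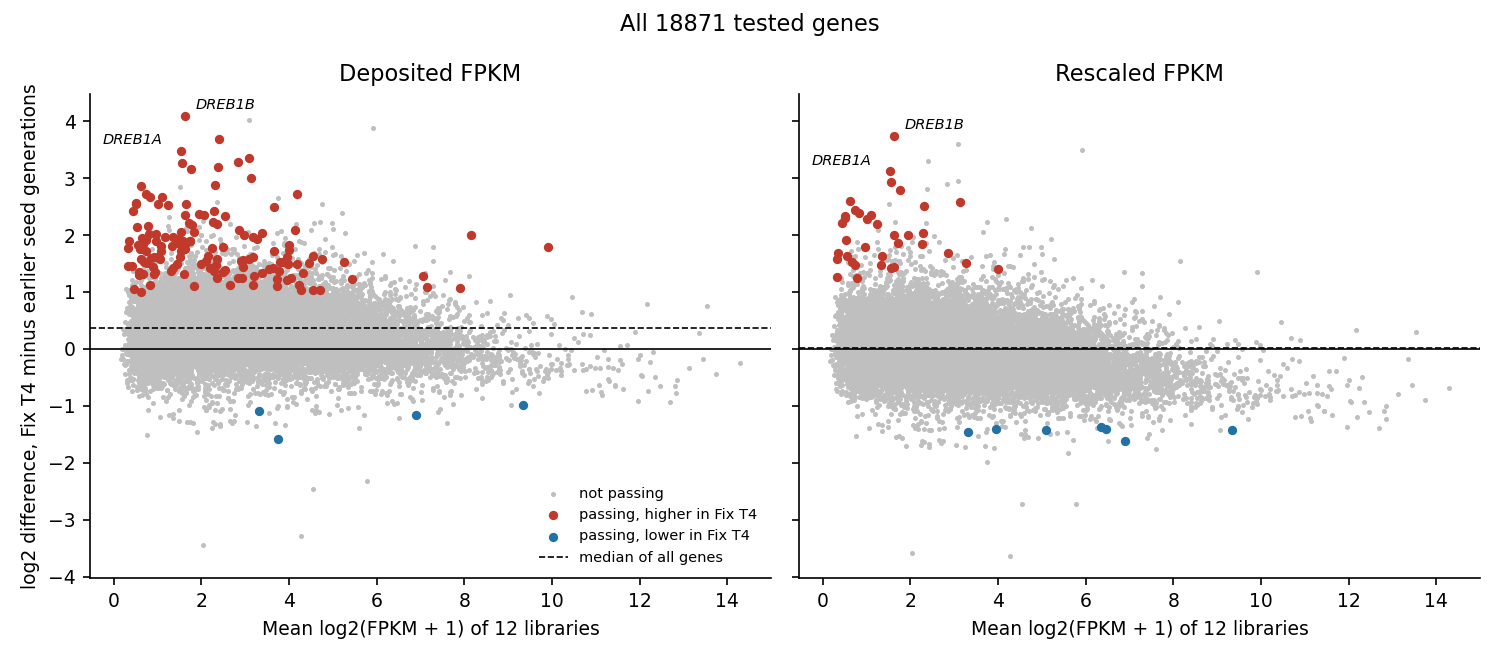
Log2 difference of each tested gene, Fix T4 minus the mean of Fix T1 to T3, against its mean log2(FPKM + 1) over 12 libraries, for deposited (left) and rescaled FPKM (right). Red and blue points passed the limma test; the dashed line, the median of all genes, lies at 0.36 on the left and 0.01 on the right, and DREB1B and DREB1A stand near the upper edge in both.

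The count depended on single libraries and on the low end of the scale. It was 15 and 11 without Fix T4 replicate 1 and replicate 2, where the lone Fix T4 library is assumed to vary like the other groups. Dropping Fix T1 replicate 1 gave 232 and dropping Fix T2 replicate 1 gave 1793, while 68 passed when Fix T3 replicate 2 was dropped, 85 and 84 when Fix T0 replicate 1 or replicate 2 was, and 67 for either CY84 library. With a pseudocount of 0.1 in place of 1, 0 genes passed. The lowest limma adjusted p was then 0.0561, and with no adjustment 4819 genes were higher and 297 lower (p under 0.05).

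Of the 146 higher genes, both Fix T4 libraries lay above all 6 earlier ones in 138, beside 15.9% of all tested genes. In 122 they lay above all 10 other libraries, CY84 and Fix T0 included, beside 8.15% of all tested genes. The median log2 difference of the 146 was 1.51 against Fix T1, 1.96 against Fix T2 and 1.64 against Fix T3. Their median level was 11.2 FPKM in both Fix T4 libraries, against 3.83 FPKM in Fix T1 replicate 2 and 1.29 to 2.44 FPKM in the other 5 earlier libraries. Fix T1 replicate 2 was the highest of the 6 earlier libraries for 84 of the 146. These genes were chosen by this contrast, so their levels in it are a description. No gene was listed at 0 in both Fix T4 libraries with at least 5 FPKM in all 6 earlier ones, and none the other way round.

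A usable name was available for 340 of the tested genes. Of these 16 passed, all higher in Fix T4, which is 4.71% of the named genes beside 0.774% of all tested genes. The named genes were picked by hand for stress, hormone and leaf functions, in part with earlier results known, so their share is not a measure for the genome. On the rescaled scale 8 of the 16 passed. The 16 were chosen for passing this contrast, and leaving out Fix T1 replicate 2 moves the earlier mean away from Fix T4. Their calls in the fits without it are therefore no support and are not counted here. The filter on low values was met only through the Fix T4 libraries by 27 of the 146 higher genes and by 434 of all tested genes. Among the 16 these were DREB1E, DREB1G, DREB1H and MYB4.

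**Figure D3:**
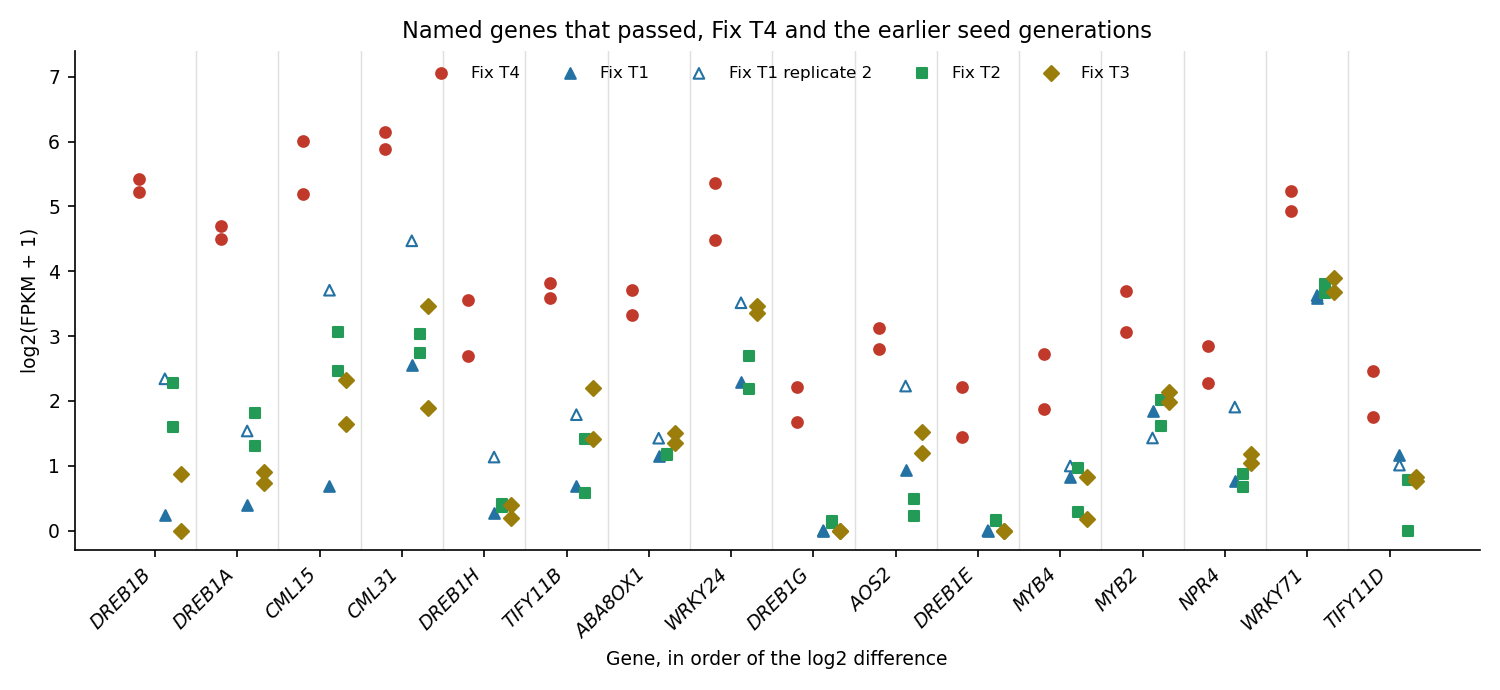
Level of the 16 named genes that passed, as log2(FPKM + 1), with the 2 Fix T4 libraries (red circles) left of the 6 earlier ones in each column; the open triangle is Fix T1 replicate 2. Both Fix T4 points lie above all 6 earlier points for each gene, from DREB1B (log2 difference 4.10) to TIFY11D (1.35), beside 15.9% of all tested genes. The genes were chosen for passing this contrast, so the gap is a description.

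DREB1 factors bind the dehydration-responsive element in promoters of cold-induced genes, and 5 of the 6 listed were tested. DREB1A and DREB1B met the filter on low values without Fix T4. DREB1E, DREB1G and DREB1H met it only through Fix T4, where they were high, and DREB1C missed it, so no count or median over the list is read here.

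DREB1B (LOC_Os09g35010), known in rice as a cold-induced gene, had 42.0 and 36.3 FPKM in Fix T4, against a lowest of 0, a median of 1.43 and a highest of 4.07 FPKM in the earlier libraries. The highest earlier value was that of Fix T1 replicate 2, and the groups did not overlap. Its log2 difference was 4.10 (SE 0.46, limma adjusted p = 0.00222), and 3.75 rescaled (limma adjusted p = 0.00845). DREB1A (LOC_Os09g35030), also cold-induced in rice, had 25.0 and 21.5 FPKM in Fix T4, against 0.312, 1.17 and 2.52 FPKM as the lowest, median and highest earlier values. All 6 earlier libraries lay far below both Fix T4 libraries. The log2 difference of DREB1A was 3.48 (SE 0.33, limma adjusted p = 0.000731), and 3.12 rescaled (limma adjusted p = 0.00289).

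DREB1H (LOC_Os09g35020), a further family member, had 10.8 and 5.47 FPKM in Fix T4, against 0.149, 0.304 and 1.20 FPKM in the earlier libraries. The groups again did not overlap. DREB1H differed by 2.66 on the log2 scale (SE 0.30, limma adjusted p = 0.00222). DREB1G (LOC_Os02g45450) and DREB1E (LOC_Os04g48350) were near 0 outside Fix T4. DREB1G had 3.65 and 2.21 FPKM in Fix T4, against a median of 0 and a highest of 0.106 FPKM in the earlier libraries (log2 difference 1.90, SE 0.21, limma adjusted p = 0.00222). DREB1E had 3.63 and 1.73 FPKM in Fix T4, against a median of 0 and a highest of 0.116 FPKM (log2 difference 1.78, SE 0.23, limma adjusted p = 0.00594). DREB1H, DREB1G and DREB1E entered the test through their Fix T4 levels, so their adjusted p-values are a description. DREB1C was too low to be tested, with 1.90 and 0.711 FPKM in Fix T4, against at most 0.101 FPKM in the earlier libraries.

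Split by earlier generation, DREB1A lay above Fix T1 by 3.63, Fix T2 by 3.03 and Fix T3 by 3.78 on the log2 scale, and DREB1B by 4.03, 3.39 and 4.88. These differences are the parts of the contrast that picked out the genes, so they are a description. The root-kept plants were as low as the earlier seed generations, with DREB1A at 0.110 to 0.966 FPKM and DREB1B at 0 to 0.632 FPKM over the 4 libraries of CY84 and Fix T0. DREB1A passed whichever of the 12 libraries was left out. Without Fix T4 replicate 1 the limma adjusted p was 0.0512 for DREB1B, DREB1H and DREB1G and 0.113 for DREB1E, and without Fix T4 replicate 2 it was 0.0607 for DREB1B. In a fit of the 8 seed-grown libraries alone DREB1A and DREB1B passed (limma adjusted p = 0.00547 and 0.0172), and also when rescaled (0.0249 and 0.0479). DREB1H, DREB1G and DREB1E met the filter only through Fix T4, so their calls in such fits are no support. When also rescaled DREB1G and DREB1E did not pass (limma adjusted p = 0.0761 and 0.127). With a pseudocount of 0.1 the 5 genes had larger log2 differences and limma adjusted p-values of 0.0745 to 0.0878.

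DREB1A, DREB1B and DREB1H carry consecutive identifiers on chromosome 9. How reads shared by such near copies were counted is not stated, so the split between the 3 is uncertain. Of the other DREB factors on a separate list, 2 of 7 paired genes were tested and 0 passed by limma. DREB2A, a drought and heat factor, had 5.34 and 3.62 FPKM in Fix T4, against 2.28, 3.04 and 3.88 FPKM earlier, and DREB2B 32.5 and 38.4 FPKM against 17.65, 33.6 and 39.1 FPKM. The groups overlapped for both (limma adjusted p = 0.263 for DREB2A and 0.523 for DREB2B). DREB1F and DREB2C were listed at 0 in all libraries, and DREB1I, DREB1J and DREB2D at 0 to 0.756 FPKM, so none of these 5 was tested.

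Of 14 tested calmodulins and calmodulin-like proteins, which are EF-hand proteins that bind calcium, 2 passed, both higher, and 12 did not pass, beside 0.774% of all tested genes higher. After rescaling 1 of the 14 passed, beside 0.191%. The list's median log2 difference was 0.64, and 0.22 rescaled. CML15 (LOC_Os05g31620) had 63.6 and 35.4 FPKM in Fix T4, against 0.607, 4.26 and 12.1 FPKM as the lowest, median and highest earlier values, the highest being Fix T1 replicate 2. Its log2 difference was 3.29 (SE 0.59, limma adjusted p = 0.0296), and it did not pass when rescaled (2.89, limma adjusted p = 0.0827). CML31 (LOC_Os01g72530) had 58.4 and 69.8 FPKM in Fix T4, against 2.70, 6.44 and 21.2 FPKM earlier, again with Fix T1 replicate 2 on top. CML31 passed on both scales (log2 difference 2.99, SE 0.49, limma adjusted p = 0.0183, and 2.57 rescaled, limma adjusted p = 0.0486). In a fit of the 8 seed-grown libraries alone neither passed (limma adjusted p = 0.0585 for CML31 and 0.0914 for CML15). CML16 had 45.1 and 44.5 FPKM in Fix T4, above all earlier libraries at 3.24, 12.25 and 18.77 FPKM, but did not pass (log2 difference 2.07, limma adjusted p = 0.0790). Smaller differences were seen in 2 more abundant members. The calmodulin gene CAM2 had 241 and 198 FPKM in Fix T4, against 198, 303 and 370 FPKM earlier. The calmodulin-like gene CML1 had 425 and 376 FPKM against 294, 365 and 560 FPKM. Without Fix T4 replicate 1 and replicate 2 the limma adjusted p was 0.168 and 0.337 for CML31, and 0.226 and 0.249 for CML15. For CML15 it was also 0.0553 and 0.0557 without CY84 replicates 1 and 2, and 0.0714 without Fix T3 replicate 2.

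The CBL and CIPK proteins form a second calcium relay, in which a calcium-binding CBL protein activates a CIPK kinase. Of 21 tested members 0 passed by limma, and 1 of the 21 met the filter on low values only through Fix T4. CIPK10, the member with the largest difference, had 18.85 and 28.4 FPKM in Fix T4, against 2.63, 4.47 and 20.2 FPKM earlier, with Fix T1 replicate 2 between the Fix T4 values (log2 difference 1.87, limma adjusted p = 0.0678). CBL3 had 16.85 and 18.83 FPKM in Fix T4, above the earlier 5.98, 6.90 and 13.7 FPKM (1.15, limma adjusted p = 0.0781). Calls of this list without Fix T1 replicate 2 are not counted here, since that fit leaves Fix T1 with 1 library. MPK5, a kinase of stress and defence signalling, had 16.2 and 18.4 FPKM in Fix T4, against 4.98, 7.54 and 11.5 FPKM earlier (1.13, limma adjusted p = 0.0550).

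Of 12 tested jasmonate genes 3 passed, all higher, and 9 did not pass, beside 0.774% of all tested genes higher. After rescaling 1 of the 12 passed, beside 0.191%. The list's median log2 difference was 0.68, or 0.28 rescaled. On a separate list of lipoxygenase and further jasmonate genes 6 were tested, and 0 passed by limma on either scale. The median of that list was 0.37, or -0.04 rescaled, beside 0.36 and 0.01 for all tested genes. TIFY11B (LOC_Os03g08330), a JAZ repressor, had 11.1 and 13.1 FPKM in Fix T4, against 0.489, 1.66 and 3.60 FPKM earlier. The groups did not overlap, and TIFY11B passed on both scales (log2 difference 2.35, SE 0.34, limma adjusted p = 0.0110, and 2.00 rescaled, limma adjusted p = 0.0464). In a fit of the 8 seed-grown libraries alone it did not pass (limma adjusted p = 0.0578), nor did AOS2 (0.0914) or TIFY11D (0.169). TIFY11D, another JAZ gene, passed at low levels with 2.39 and 4.49 FPKM in Fix T4, against 0, 0.747 and 1.25 FPKM earlier (log2 difference 1.35, SE 0.27, limma adjusted p = 0.0470). AOS2 (LOC_Os03g12500), an allene oxide synthase of jasmonate synthesis, had 7.68 and 5.96 FPKM in Fix T4, against 0.171, 1.11 and 3.69 FPKM earlier, with Fix T1 replicate 2 the highest of these. Its log2 difference was 1.86 (SE 0.36, limma adjusted p = 0.0379), and 1.57 rescaled (limma adjusted p = 0.0898).

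A further synthesis step and the receptor of the jasmonate pathway did not pass. AOC, allene oxide cyclase, had 60.3 and 49.9 FPKM in Fix T4, against 45.3, 52.6 and 64.4 FPKM earlier, and the receptor gene COI1B 82.3 and 101 FPKM against 80.8, 102 and 124 FPKM. The groups overlapped for both, and the log2 differences were 0.05 and -0.14 (limma adjusted p = 0.872 and 0.606). TIFY10A and TIFY10B, more abundant JAZ genes, did not pass either (log2 difference 0.95 and 0.49, limma adjusted p = 0.123 and 0.173). TIFY11B had limma adjusted p-values of 0.130 and 0.239 without Fix T4 replicates 1 and 2, AOS2 0.226 and 0.361, and TIFY11D 0.138 and 0.531. AOS2 and TIFY11D also lost their calls without either CY84 replicate (0.0774 and 0.0777, and 0.0892 for both), without Fix T3 replicate 1 (0.0539 and 0.0646) and without Fix T3 replicate 2 (0.0867 and 0.0893), AOS2 without Fix T2 replicate 2 (0.0635) and TIFY11D without Fix T0 replicates 1 and 2 (0.0827 and 0.0824).

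Abscisic acid is the hormone of drought and dormancy, and 1 of 3 tested hydroxylases that break it down passed, beside 0.774% of all tested genes higher. After rescaling the same 1 passed, beside 0.191%. On 2 further lists, given below, 0 of 11 and 0 of 10 tested genes passed by limma. ABA8OX1 (LOC_Os02g47470), an abscisic acid hydroxylase that starts the breakdown of the hormone, had 12.1 and 8.99 FPKM in Fix T4, against 1.22, 1.40 and 1.83 FPKM earlier. The 6 earlier libraries lay within a narrow range, and both Fix T4 libraries lay above it. The log2 difference was 2.22 (SE 0.23, limma adjusted p = 0.00187), and 1.86 rescaled (limma adjusted p = 0.00722), and the call was lost without Fix T4 replicate 1 (limma adjusted p = 0.0512). ABA8OX1 lay above Fix T1 by 2.23, Fix T2 by 2.34 and Fix T3 by 2.09 (log2). Its relatives did not pass on either scale, and they overlapped between the groups on the deposited scale. After rescaling both Fix T4 libraries lay below all 6 earlier ones for 1 relative, beside 7.36% of all tested genes. Of the 3 hydroxylases only ABA8OX1 had a positive log2 difference, and their median was -0.39, or -0.83 rescaled. ABA8OX2 had 30.7 and 21.95 FPKM in Fix T4, against 26.8, 32.8 and 47.8 FPKM earlier, and ABA8OX3 9.02 and 11.2 FPKM against 8.87, 14.6 and 25.99 FPKM.

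NCED3, which makes the precursor of abscisic acid, lay lower in Fix T4 without passing. It had 7.44 and 6.66 FPKM in Fix T4, below all earlier libraries at 9.18, 12.5 and 13.9 FPKM (log2 difference -0.69, SE 0.22, limma adjusted p = 0.0951, and -1.10 rescaled, limma adjusted p = 0.0827). Of the 11 tested genes of the abscisic acid and dehydration list, which holds PP2C phosphatases, NCED3 and dehydration genes, 0 passed by limma, with a median of -0.04, or -0.46 rescaled. The 10 SAPK kinases, which carry the abscisic acid signal, also had 0 passing, with a median of 0.16, or -0.24 rescaled.

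WRKY, MYB and NPR genes act in defence and stress signalling. WRKY71 (LOC_Os02g08440), a transcription factor of defence, had 29.6 and 36.8 FPKM in Fix T4, against 11.1, 11.8 and 13.9 FPKM earlier. The earlier libraries lay within a narrow range, and the log2 difference was 1.37 (SE 0.21, limma adjusted p = 0.0139), and 0.94 rescaled (limma adjusted p = 0.117). WRKY24 (LOC_Os01g61080), a repressor of hormone responses in rice aleurone cells, had 21.3 and 40.1 FPKM in Fix T4, against 3.57, 7.35 and 10.4 FPKM earlier (log2 difference 2.00, SE 0.38, limma adjusted p = 0.0368). MYB2 (LOC_Os03g20090), an R2R3 MYB factor of stress tolerance in rice, had 12.01 and 7.33 FPKM in Fix T4, against 1.69, 2.77 and 3.42 FPKM earlier (1.54, SE 0.26, limma adjusted p = 0.0224). For these genes the groups did not overlap, and Fix T1 replicate 2 had the highest earlier value for WRKY24 and the lowest for MYB2.

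MYB4, a rice factor that raises cold tolerance when overexpressed in Arabidopsis, had 2.69 and 5.59 FPKM in Fix T4, against 0.137, 0.781 and 0.997 FPKM earlier (log2 difference 1.62, SE 0.30, limma adjusted p = 0.0309). NPR4 (LOC_Os01g61990), a relative of the salicylic acid regulator NPR1, had 3.86 and 6.21 FPKM in Fix T4, against 0.598, 0.946 and 2.75 FPKM earlier (1.49, SE 0.30, limma adjusted p = 0.0470). After rescaling WRKY24, MYB2, MYB4 and NPR4 did not pass (limma adjusted p = 0.0921, 0.117, 0.117 and 0.111). Over the lists 1 of 5 tested NPR genes and 1 of 4 defence regulators passed, both higher, beside 0.774% of all tested genes. After rescaling 0 passed by limma in either list, beside 0.191%, and 0 of the 8 tested MYB factors. The median was 0.32 for the NPR genes and 0.54 for the defence regulators (-0.09 and 0.15 rescaled). MYB4 met the filter on low values only through Fix T4, where it was high. Its adjusted p is therefore a description, and no count of MYB factors on the deposited scale is read here. NPR1 itself had 9.39 and 14.7 FPKM in Fix T4, against 5.52, 9.36 and 14.7 FPKM earlier.

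All 5 of these calls were lost without either Fix T4 library. In a fit of the 8 seed-grown libraries alone none of the 5 passed (limma adjusted p = 0.0639 to 0.172). Without Fix T4 replicate 1 and replicate 2 the limma adjusted p was 0.130 and 0.361 for WRKY71, 0.138 and 0.524 for WRKY24, 0.226 and 0.131 for MYB2, 0.101 and 0.524 for MYB4, and 0.191 and 0.531 for NPR4. Without Fix T3 replicate 2 it was 0.0757 for WRKY24, 0.0557 for MYB2, 0.0684 for MYB4 and 0.0941 for NPR4. Without CY84 replicates 1 and 2 it was 0.0518 and 0.0512 for WRKY24, 0.0650 and 0.0648 for MYB4, and 0.0918 and 0.0907 for NPR4. Without Fix T0 replicates 1 and 2 it was 0.0552 and 0.0553 for WRKY24, 0.0551 and 0.0550 for MYB4, and 0.0832 and 0.0833 for NPR4. WRKY24 and NPR4 also lost their calls without Fix T2 replicate 2 (0.0632 and 0.0637) and Fix T3 replicate 1 (0.0592 and 0.0646).

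The 6 tested genes of diterpene phytoalexin synthesis, which makes antimicrobial compounds of rice, had a median of 0.96, or 0.63 rescaled, and the 7 tested genes of phenylpropanoid and lignin synthesis 0.83, or 0.38 rescaled, with 0 passing in each by limma. MAS, a momilactone synthase, had 10.51 and 13.9 FPKM in Fix T4, against 0.258, 1.61 and 18.4 FPKM earlier, so 1 earlier library lay above both (log2 difference 2.13, limma adjusted p = 0.0695). 4CL3, a coumarate ligase of lignin synthesis, had 94.4 and 161 FPKM in Fix T4, against 13.7, 78.6 and 131 FPKM earlier (1.14, limma adjusted p = 0.0704). The pathogenesis protein gene PBZ1 had 1218 and 660 FPKM in Fix T4, against 621, 866 and 1853 FPKM earlier, a log2 difference of -0.11. Without Fix T1 replicate 2, 2 of the 6 phytoalexin genes and 4 of the 7 phenylpropanoid genes passed higher, beside 22.7% of all tested genes. When also rescaled 1 and 0 passed higher, beside 3.68%.

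**Figure D4:**
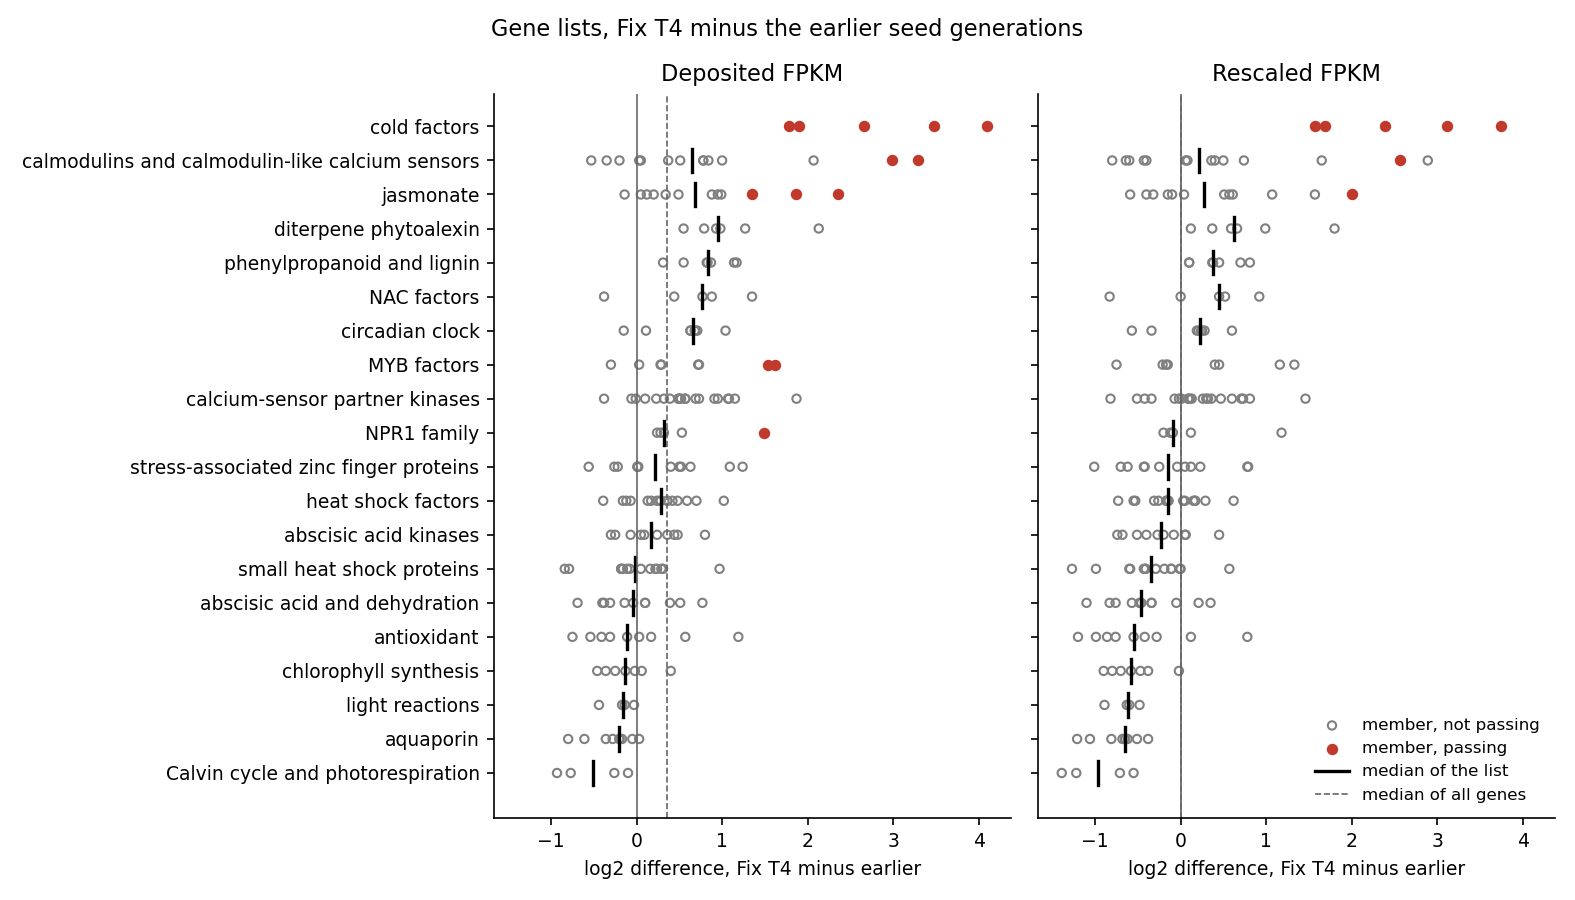
Log2 difference (Fix T4 minus the earlier seed generations) of each tested member of 20 gene lists, for deposited (left) and rescaled FPKM (right); filled red points passed, black bars are list medians (not drawn where a member met the filter only through Fix T4) and the dashed line is the median of all genes. Among the cold factors 3 of the 5 points met the filter only through Fix T4, and of the 20 lists that of the Calvin cycle has the lowest median, -0.51 on the left and -0.97 on the right.

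No named gene passed as lower in Fix T4. The nearest was ACO1, an oxidase of ethylene synthesis, with 0.682 and 0 FPKM in Fix T4, below the earlier 1.298, 1.89 and 2.70 FPKM (log2 difference -1.15, SE 0.26, limma adjusted p = 0.0661). By limma adjusted p, PIP2-6, NCED3, HD3A, SODCC1 and HSP17.9A, given in their places, also lay nearer to passing than RCA and LSI1. RCA, the activase of Rubisco, had 3661 and 4273 FPKM in Fix T4, below all earlier libraries at 5201, 7009 and 11240 FPKM (log2 difference -0.93, SE 0.32, limma adjusted p = 0.104). The lowest of the earlier values was that of Fix T1 replicate 2. RBCS, a small subunit of Rubisco, had 6524 and 4032 FPKM in Fix T4, against 5646, 9088 and 16230 FPKM, so the groups overlapped (-0.77, limma adjusted p = 0.169). The 4 Calvin cycle and photorespiration genes had a median of -0.51, or -0.97 rescaled, the 4 genes of the light reactions -0.16, or -0.61, and the 7 genes of chlorophyll synthesis -0.13, or -0.58, with 0 passing by limma in each on either scale. The 9 tested aquaporins had a median of -0.20, or -0.65 rescaled, with 0 passing by limma.

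PIP2-6, an aquaporin of the plasma membrane, had 7.87 and 6.10 FPKM in Fix T4, below the earlier 10.3, 12.3 and 18.76 FPKM (log2 difference -0.80, limma adjusted p = 0.0834). LSI1, a silicon channel known best from roots, had 33.0 and 32.9 FPKM in Fix T4, below the earlier 39.4, 55.0 and 72.8 FPKM (-0.67, limma adjusted p = 0.109). SODCC1, a copper and zinc superoxide dismutase, had 115 and 126 FPKM in Fix T4, below the earlier 142, 216 and 255 FPKM (-0.75, limma adjusted p = 0.0956). Among all 340 named genes both Fix T4 libraries lay above all earlier ones in 49 and below all in 11, beside 15.9% and 1.35% of all tested genes. After rescaling the counts were 24 and 41, beside 6.31% and 7.36%.

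Without Fix T1 replicate 2 some of these passed as lower in Fix T4. In that fit 73 named genes passed higher and 11 lower, beside 22.7% and 0.970% of all tested genes, and 20 and 38 when also rescaled, beside 3.68% and 4.24%. RCA then had a log2 difference of -1.12 (limma adjusted p = 0.0159), LSI1 -0.81 (limma adjusted p = 0.0152), PIP2-6 -0.91 (limma adjusted p = 0.0111), SODCC1 -0.89 (limma adjusted p = 0.0132), NCED3 -0.74 (limma adjusted p = 0.0310) and HSP17.9A, a small heat shock protein gene, -1.0 (limma adjusted p = 0.0169). Because Fix T1 replicate 2 lay nearest Fix T4, passing without it is partly built in and is no separate support for these genes. The rescaled form of that fit was added after the data had been seen.

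Clock and flowering genes were examined because their levels follow the hour and the stage of the plant. Of 8 tested clock genes 0 passed by limma, with a median of 0.66, or 0.22 rescaled. On the deposited scale Fix T4 overlapped the earlier libraries in all 8. After rescaling both Fix T4 libraries lay below all earlier ones for 1 of the 8, beside 7.36% of all tested genes. LHY, a morning gene, had 31.4 and 53.3 FPKM in Fix T4, against 11.7, 25.8 and 53.1 FPKM earlier, and PRR1, an evening gene, 44.0 and 45.5 FPKM against 18, 28.9 and 44.7 FPKM. For both, Fix T1 replicate 2 was the highest earlier library. The florigen gene HD3A had 41.0 and 16.8 FPKM in Fix T4, against 40.03, 57.8 and 97.0 FPKM earlier (log2 difference -1.16, limma adjusted p = 0.0956), and MADS14, a flowering factor expressed in leaves, 123 and 167 FPKM against 46.0, 122 and 145 FPKM (0.53, limma adjusted p = 0.282). The part of the hour or the stage in the results was not tested.

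Of the heat shock genes that were listed and tested, 0 passed by limma. The 14 tested small heat shock genes had a median of -0.02, or -0.35 rescaled, and the 16 tested heat shock factors 0.28, or -0.14 rescaled, with 0 passing by limma in each. HSP17.9A had 11.3 and 12.1 FPKM in Fix T4, below the earlier 13.9, 23.0 and 30.9 FPKM (log2 difference -0.84, limma adjusted p = 0.102). HSFA5 had 11.9 and 13.1 FPKM in Fix T4, above the earlier 4.09, 4.96 and 9.14 FPKM (1.02, limma adjusted p = 0.0716). Of 12 tested stress-associated zinc finger genes 0 passed by limma. SAP11 had 120 and 126 FPKM in Fix T4, above the earlier 31.9, 50.01 and 79.9 FPKM (1.24, limma adjusted p = 0.0691).

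Of 9 tested cytokinin genes 0 passed by limma, and both Fix T4 libraries lay above all earlier ones in 4, beside 15.9% of all tested genes. After rescaling that held for 1, beside 6.31%. RR9, a response regulator, had 29.1 and 19.6 FPKM in Fix T4, against 4.95, 8.29 and 17.5 FPKM earlier, and RR10 66.7 and 46.6 FPKM against 12.2, 23.5 and 39.3 FPKM. Both lay above all earlier libraries on the deposited scale, and neither passed (log2 difference 1.38 and 1.21, limma adjusted p = 0.0836 and 0.0865), and the root-kept CY84 and Fix T0 reached 31.0 FPKM for RR9 and 66.9 FPKM for RR10. NAC factors had a median of 0.77, or 0.45 rescaled, over 5 tested, with 0 passing by limma. NAC3 had 53.7 and 40.5 FPKM in Fix T4, against 5.27, 20.1 and 30.1 FPKM earlier (1.35, limma adjusted p = 0.103).

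Of 10 genes listed for DNA methylation, a mark that is passed on through cell division, 5 were paired with identifiers and 2 tested, DRM2 and DRM3, and 0 passed by limma. DRM2, a methyltransferase guided by small RNA, had 7.11 and 8.17 FPKM in Fix T4, against 3.07, 4.19 and 7.36 FPKM earlier (log2 difference 0.64, limma adjusted p = 0.139), and the 8 tested argonaute genes of small RNA silencing, with 0 passing by limma, had a median of 0.22, or -0.20 rescaled. PAIR1, an edited meiosis gene, was listed at 0 in all 8 seed-grown libraries, and its level in a leaf does not check the edit. Leaf markers were abundant in every library, with CAB2R at 13580 and 9870 FPKM in Fix T4, against 9448, 14870 and 27550 FPKM earlier. Of 2 paired seed storage markers only WX was tested (4.95 and 5.02 FPKM in Fix T4, against 1.66, 3.89 and 6.67 FPKM). Of 4 paired root markers only LSI1, given above, was tested, and LSI2 was listed at 0 in all libraries. Markers of anthers and of dividing cells could not be paired with identifiers and were not used here.

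Among genes without a usable name, the largest passing differences upward were those of LOC_Os01g09220 and LOC_Os06g04230. LOC_Os01g09220 had 61.2 and 52.0 FPKM in Fix T4, against 0.375, 3.27 and 13.5 FPKM earlier (log2 difference 3.69, SE 0.64, limma adjusted p = 0.0251), and LOC_Os06g04230 73.4 and 64.0 FPKM against 1.52, 6.37 and 25.2 FPKM (3.35, SE 0.60, limma adjusted p = 0.0293). Fix T1 replicate 2 was the highest earlier library for both. The largest passing differences downward were those of LOC_Os09g28500, with 4.98 and 4.01 FPKM in Fix T4, against 7.32, 16.4 and 25.0 FPKM earlier (-1.59, SE 0.29, limma adjusted p = 0.0293), and LOC_Os05g31140, with 3.12 and 4.08 FPKM against 6.05, 9.10 and 11.3 FPKM (-1.09, SE 0.21, limma adjusted p = 0.0434). After rescaling only LOC_Os05g31140 of these 4 passed (limma adjusted p = 0.0249). All 4 lost their calls without either Fix T4 replicate (limma adjusted p = 0.194 to 0.451), and each passed in 4 to 9 of the 12 fits that leave out 1 library. None of the 4 passed in a fit of the 8 seed-grown libraries alone (limma adjusted p = 0.0835 to 0.18).

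Passing genes were found on every chromosome, by the chromosome number in the identifier. Their share of the tested genes ran from 0.204% (2 of 978) on chromosome 11 to 1.22% (19 of 1562) on chromosome 6. Passing genes at most 3 tested genes apart formed 10 runs holding 23 of the 150, and 3 of the runs held 3 genes. One of these 3 was DREB1B, DREB1H and DREB1A on chromosome 9, and LOC_Os06g04230 lay in another on chromosome 6. In any window of 50 neighbouring tested genes at most 5 passed. These counts describe order along the identifiers and carry no test.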

How the data were processed

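The authors deposited 1 table of FPKM with a column per library and MSU gene identifiers. The submitters' processing notes list DESeq2 1.30.1, StringTie 1.3.4d, Bismark 0.23.0, fastp, featureCounts 1.6.4, Trimmomatic 0.39, FastQC and HISAT2 2.1.0. What each tool was used for, and the genome build, are not given in the sources used here. With FPKM alone the number of reads behind a value is unknown, so intervals for counting error are left out. Relative depth, read from ratios of low values, ran from 0.673 to 1. Left out were the table's 20 columns that name no sample and the series' 12 bisulfite samples.

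Of 55801 listed genes, 26866 were at 0 throughout, and the 18871 with at least 1 FPKM in at least 2 of 12 libraries were tested on log2(FPKM + 1) with limma 3.58.1 (R 4.3.3), fitting 6 group means with an intensity-dependent prior and 6 residual degrees of freedom. Benjamini-Hochberg adjustment ran over all tested genes. Names were paired with identifiers by hand from rice nomenclature and checked against the order of names in a RefSeq annotation: 422 of 507 pairs were kept, within 300 kb of the predicted place. This limits every gene name printed. The rule for named genes took those that passed without overlap, with a mean of at least 5 FPKM on either side, up to 12 each way, and 2 each way without a name. Other names come from the gene lists. The members and lists were chosen with earlier results of these data known. In simulated data the fit recovered 12.5%, 98.5% and 100% of 200 genes changed 2-, 4- and 8-fold, beside 1, 9 and 20 unchanged genes, and 0 genes passed with no change. The simulated noise was independent between libraries, with no difference in library scale and no library set apart. Only genes with a mean of at least 5 FPKM were changed. These rates therefore do not carry over to the real libraries. Alternatives were 23 planned and 3 added after seeing the data.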

Additional observations from a re-analysis of the deposited data

How the results depend on the processing

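With all 12 libraries 150 genes passed. The count was 0 with a pseudocount of 0.1, 87 with no filter on low values, 59 with a filter of at least 5 FPKM, 43 after rescaling, 23 in a fit of the 8 seed-grown libraries alone, 1959 with library weights, 4346 without the Fix T1 libraries and 61 without the Fix T2 libraries. It stayed within 1.5 times, at 129 without a trend in the prior and at 114 without the Fix T3 libraries. Leaving out each library in turn gave 11 to 4473. Fits added after seeing the data gave 1494 after rescaling without Fix T1 replicate 2, 25 after rescaling with the replicate block and 11 after rescaling the 8 libraries alone. With the replicate block 90 passed, all higher. Equally numbered libraries deviated together in 2 of 15 pairs of groups (correlation over 0.1), so the numbers were not taken as pairing the samples. The cause of these differences was not tested. Fits that leave out libraries also hold fewer samples. For the 16 named and 4 unnamed genes, 319 of the repeated fits kept the call and 196 lost it. Of the list medians with at least 3 tested members, 32 moved by more than the spread between replicates on rescaling and 8 did not. The limits are 2 libraries per generation, an unknown depth, and a scale that differs between Fix T4 and most earlier libraries.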
